A study of Mus musculus with 34 samples.

Results

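Mesothelial cells sorted from the mesentery were compared with fibroblasts sorted from the same tissue. The comparison rests on 6 of the 34 libraries of the series, chosen by their titles: 3 of mesentery mesothelial cells and 3 of mesentery fibroblasts. Polyadenylated RNA was sequenced, and every gene with a deposited count entered. The study asked how transcription in stromal cells varies with the tissue they live in. Both groups came from mouse mesenteric tissue that the labels class as visceral fat. The digested tissue was sorted into TRIZOL within a gate that required podoplanin and lacked CD45, CD31 and Epcam. Those without surface PDGFRA were called mesothelial cells, and those with it were called fibroblasts. All 6 libraries carry a GFP-negative label. No strain, genotype, sex, age or treatment is given, and whether the 3 libraries of each group stem from different animals is not stated. The p-values below therefore measure the spread between these libraries.

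The mesothelium is the single sheet of flattened epithelial cells, derived from mesoderm, that covers the gut, the mesentery and the wall of the body cavity. It rests on a basement membrane, carries microvilli and a glycocalyx, and forms a slippery, selectively permeable surface. The fibroblasts beneath it build the fibrous matrix of the mesentery and surround its vessels, nerves and fat. The mesothelial class is defined by the lack of a single surface protein within the podoplanin gate. Besides podoplanin, which was required of both groups, the sort selected for no protein of mesothelial cells.

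The mesothelial libraries held 33.6 M, 30.7 M and 30.9 M counts, and the fibroblast libraries 41.1 M, 29.4 M and 32.7 M. Levels of single genes are given below as counts-per-million (CPM) after TMM scaling, a correction for library composition. Log CPM correlated at 0.960 to 0.975 between libraries of a group and at 0.813 to 0.851 between groups, across 19071 genes. The libraries also differed in RNA of pancreatic acinar cells. The summed level of 28 acinar genes was 10710, 2779 and 296 CPM in mesothelial cells and 5228, 1202 and 1637 CPM in fibroblasts, and none of the 27 that were tested differed between the groups. Counts that move by more than 1.5 times without mesothelial library 1 and fibroblast library 1, the highest in acinar RNA of each group, are given both ways. The part of acinar RNA in any other result was not tested.

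The sort markers followed the gate at the RNA level. Pdgfra, the receptor used to split the cells, lies at chr5:75152292-75198215 on GRCm38 and had 7.95, 4.77 and 8.21 CPM in mesothelial cells, against 1058, 1443 and 1418 CPM in fibroblasts. The groups lay far apart, with the mesothelial mean at 0.535% of the fibroblast mean (log2 fold change -7.54 ± 0.32 SE, edgeR quasi-likelihood test, Benjamini-Hochberg adjusted p 7.96e-09). Since the sort used this protein, its transcript checks the labels and is no finding. Pdpn, which encodes podoplanin and was required of both groups, had 386, 672 and 639 CPM in mesothelial cells, against 232, 243 and 266 CPM in fibroblasts. All 3 mesothelial libraries exceeded all 3 fibroblast libraries in Pdpn (log2 fold change 1.20 ± 0.23 SE, edgeR adjusted p 0.00147). Transcripts of the excluded classes were scarce. Ptprc, encoding CD45, stayed below 1 CPM in all 6 libraries, as did Epcam. Pecam1, encoding CD31, had 7.98, 6.96 and 9.55 CPM in mesothelial cells, against 19.6, 11.9 and 5.51 CPM in fibroblasts, and did not pass the test.

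Of 19071 genes tested with edgeR's quasi-likelihood test, 4242 (22.2%) were called, meaning an adjusted p below 0.05 and a log2 fold change of at least 1 in size. In mesothelial cells 2388 genes (12.5%) were higher and 1854 (9.72%) lower. Each count of list members below is to be read beside these shares. Across the tested genes the log2 fold change had a median of 0.04. Without the 2 libraries highest in acinar RNA the counts were 1904 higher and 1488 lower. Genes called higher took 23.3%, 21.8% and 23.9% of all counts in the mesothelial libraries, against 4.73%, 4.93% and 4.86% in the fibroblast libraries. Genes called lower took 4.48%, 4.3% and 4.49% of counts in mesothelial cells, against 25.9%, 25.9% and 26.6% in fibroblasts. Among the higher genes 360 changed by a log2 of at least 5, and among the lower genes 261. Libraries of the groups did not overlap for 7654 genes (40.1% of those tested), which include 2361 of the higher and 1829 of the lower genes. In bulk libraries fewer cells of a type and less RNA per cell cannot be told apart, which holds for every level below.

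**Figure D1:**
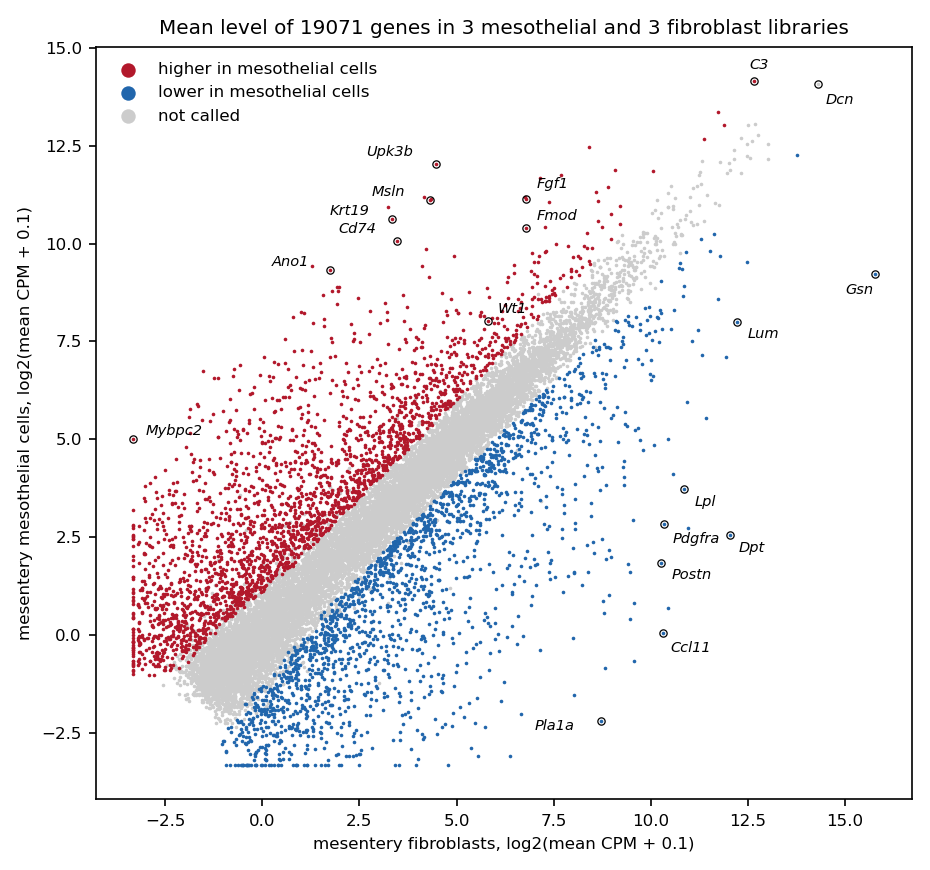
Mean level of each tested gene in mesentery mesothelial cells (vertical axis) against mesentery fibroblasts (horizontal axis), as log2 of mean CPM plus 0.1, with called genes in colour. Upk3b and Msln lie far above the diagonal, Pdgfra, Lpl and Dpt far below it, and Dcn close to it.

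Markers of the mesothelium separated the groups. Of 16 markers, all tested, 15 were higher in mesothelial cells and none lower, with a median log2 fold change of 6.70 against 0.04 over all genes. Upk3b, a uroplakin of the cell surface at chr5:136038496-136046487, had 3509.9, 5102 and 4006 CPM in mesothelial cells, against 38.9, 7.08 and 20.9 CPM in fibroblasts. Every mesothelial library stood far above every fibroblast library (log2 fold change 7.56 ± 0.67 SE, edgeR adjusted p 5.65e-05; 8.21 without fibroblast library 1). Msln, which encodes the surface glycoprotein mesothelin, had 1912, 2387 and 2386 CPM in mesothelial cells, against 34.2, 7.395 and 18.04 CPM in fibroblasts. Its groups were as far apart (log2 fold change 6.80 ± 0.57 SE, edgeR adjusted p 2.36e-05; 7.43 without fibroblast library 1). The mucin Muc16, the binding partner of mesothelin, averaged 440.4 ± 82.3 CPM in mesothelial cells and 3.79 ± 1.79 CPM in fibroblasts (SD, n = 3 each), and rose by 6.85. The remaining marker, the calcium-binding protein Calb2, had 0, 0 and 2.50 CPM in mesothelial cells, against 0.261, 0.316 and 0.516 CPM in fibroblasts, so that a common mesothelial marker was close to absent here, and all of its mesothelial counts were in library 3. Without that library it was called lower by edgeR, with a fitted size that depends on the prior count. The 16 markers summed to 16870, 18100 and 16160 CPM in mesothelial cells and 271, 147 and 182 CPM in fibroblasts, which puts the fibroblast libraries at 1.59%, 0.860% and 1.07% of the mesothelial mean. Fibroblast library 1 was the highest of its group in this sum.

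Fibroblast markers divided into genes that differed sharply and genes that did not pass the test. Of 12 markers, 6 were lower in mesothelial cells and 1 higher, and the median log2 fold change was -1.31. Pdgfra, on which the cells were sorted, is 1 of the 6, enters the median and is no finding. Dpt, which encodes the matrix protein dermatopontin, had 9.34, 1.30 and 6.56 CPM in mesothelial cells, against 4023, 4533 and 4178 CPM in fibroblasts. Its level in mesothelial cells was 0.135% of that in fibroblasts (log2 fold change -9.51 ± 0.73 SE, edgeR adjusted p 2.19e-05). Pi16, a marker of perivascular fibroblasts, fell by 132-fold to 3.84 ± 0.250 CPM in mesothelial cells, against 508 ± 52.0 CPM in fibroblasts (SD, n = 3 each). Dcn, which encodes decorin and is often used to name fibroblasts, had 14342, 19082 and 18849 CPM in mesothelial cells, against 22201, 18571 and 19785 CPM in fibroblasts. The groups overlapped, and the log2 fold change of -0.21 ± 0.24 SE did not pass the test. Col1a1 and Col3a1, the main chains of collagens I and III, did not pass either, at -1.25 ± 0.56 and -0.88 ± 0.40 SE, and in both genes mesothelial library 2 exceeded fibroblast library 2. Col1a1 was called lower without mesothelial library 2 (-1.93) and with all 34 libraries in the fit (-1.20), and Col3a1 without fibroblast library 2 (-1.19). Dpp4, a surface peptidase used to mark adventitial fibroblast progenitors, was higher in mesothelial cells, with 996, 967 and 1070.5 CPM in mesothelial cells, against 143, 213 and 209.8 CPM in fibroblasts (log2 fold change 2.42 ± 0.22 SE, edgeR adjusted p 2.78e-06).

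Within the mesentery several genes were close to private to mesothelial cells, which did not hold for all of them in the omentum. Mybpc2, the fast skeletal form of myosin-binding protein C, had 26.8, 26.8 and 41.8 CPM in mesothelial cells and no count in any fibroblast library, so that it was at least 1037-fold higher, a bound from 3 counts over the fibroblast group that covers counting error only. The slow form Mybpc1 had 2 counts over the fibroblast group and was higher by 536-fold (95% interval 148 to 4433). Svs5, a secreted protein best known from seminal vesicles, was higher by 655-fold (95% interval 181 to 5416). Dync1i1, a dynein intermediate chain, was higher by 551-fold (95% interval 152 to 4556), and the chitinase-like protein Chil1 by 479.9-fold (95% interval 164 to 2329.7). These intervals cover counting error only. Extl1, a glycosyltransferase of the exostosin family, averaged 16.2 ± 2.24 CPM in mesothelial cells and 0.0481 ± 0.0262 CPM in fibroblasts (SD, n = 3 each). In the omentum Extl1 averaged 7.76 and 8.13 CPM in mesothelial cells and fibroblasts, and in epididymal fat 8.29 and 0.142 CPM. Omentum mesothelial cells and fibroblasts averaged 678 and 64.8 CPM of Lrrn4, and 34.8 and 9.10 CPM of Bnc1. The remaining genes among the 15 largest rises were Vat1l, Lrrn4, Fam151a, Spock3, Slitrk4, Bnc1, Sh3tc2, Igfbp2 and Ptgds, with log2 fold changes of 7.78 to 8.77. Without fibroblast library 1 the change was 10.37 for Bnc1, 9.37 for Sh3tc2 and 7.47 for Fam151a, and 9.85 for Fam151a without fibroblast library 3. All fibroblast counts of Spock3 were in fibroblast library 1, and without it the gene was at least 1090.5-fold higher. Of the 15 genes Lrrn4 was the most abundant by CPM, with 743, 928 and 411 CPM in mesothelial cells, against 3.55, 0.664 and 2.72 CPM in fibroblasts.

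Several of the most abundant genes called higher encode secreted or membrane proteins. C3, the central complement component at chr17:57203970-57228136, had 17274, 19041 and 18289 CPM in mesothelial cells, against 5560.4, 6346 and 7467 CPM in fibroblasts. All mesothelial libraries exceeded all fibroblast libraries, although the change was modest in size (log2 fold change 1.495 ± 0.23 SE, edgeR adjusted p 0.000282). Enpp2, which encodes autotaxin, the secreted enzyme that makes lysophosphatidic acid, averaged 5638 ± 1482 CPM in mesothelial cells and 339 ± 51.5 CPM in fibroblasts (SD, n = 3 each), a log2 fold change of 4.06. Cav1, the caveolar coat protein caveolin-1, had 3044, 3993 and 3392 CPM in mesothelial cells, against 258, 155 and 207 CPM in fibroblasts, a log2 fold change of 4.07, while its partner Cavin1 rose by 1.14, a call lost without mesothelial library 3 (0.80). Transferrin (Trf) rose by 1.80, galectin-1 (Lgals1) by 2.55, and the secreted glycoprotein Ccdc80 by 1.30.

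In the other direction, 3 of the 15 largest falls had no count in any mesothelial library. Iyd, which recovers iodide from iodotyrosines in the thyroid, was at least 926-fold lower, Insrr, a receptor related to the insulin receptor, at least 514-fold, and Clvs1, which encodes clavesin 1, at least 353-fold. Hp, which encodes the haemoglobin-binding protein haptoglobin, had 0.0505, 0 and 0 CPM in mesothelial cells, against 95.2, 77.4 and 76.4 CPM in fibroblasts. It was lower by 4188-fold (95% interval 1159 to 34591) in mesothelial cells, with 2 counts over that group. Pla1a, a phospholipase that acts on phosphatidylserine, had 0.253, 0 and 0.0974 CPM in mesothelial cells, against 339, 436 and 500.2 CPM in fibroblasts, with no overlap (log2 fold change -11.64 ± 0.47 SE, edgeR adjusted p 6.32e-09). Inmt, an N-methyltransferase of small amines, had 0.480, 0.511 and 0.584 CPM in mesothelial cells, against 916, 746 and 612 CPM in fibroblasts (log2 fold change -10.49 ± 0.32 SE, edgeR adjusted p 2.42e-09). Penk, the precursor of the enkephalin peptides, fell to 1.51 ± 1.11 CPM in mesothelial cells, against 1400.5 ± 122 CPM in fibroblasts (SD, n = 3 each). The metalloprotease Adam12 fell by 9.14 on the log2 scale, and the secreted protein Srpx2 by 9.96. Without mesothelial library 1 the change of Srpx2 was -10.57, and Pla1a was lower by 8359.5-fold (95% interval 2860.3 to 40538). Without mesothelial library 3 Adam12 was lower by 1792-fold (95% interval 496 to 14803). By level, Gsn stood first among the genes called lower. It encodes the actin-severing protein gelsolin, which also has a secreted form, and had 641, 569 and 595 CPM in mesothelial cells, against 61875, 41230 and 65417 CPM in fibroblasts (log2 fold change -6.54 ± 0.33 SE, edgeR adjusted p 1.83e-08).

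Among genes of epithelial structure, 9 of 14 tested keratins and other intermediate filament genes were higher, 2 were lower and 3 were not called, with a median log2 fold change of 4.79. Without the 2 libraries highest in acinar RNA, 8 were higher and 1 lower, and 1 was lower without mesothelial library 1 or 3 or fibroblast library 3. The keratins of simple epithelia were the abundant ones. Krt19 had 1333, 1916 and 1493 CPM in mesothelial cells, against 16.1, 2.62 and 11.4 CPM in fibroblasts, Krt8 averaged 271 ± 116 CPM in mesothelial cells and 2.88 ± 2.14 CPM in fibroblasts, and its partner Krt18 averaged 354 ± 102 CPM and 3.65 ± 2.62 CPM (SD, n = 3 each). Their log2 fold changes were 7.29, 6.54 and 6.59. Keratins of stratified epithelium were present at lower levels, Krt14 with 20.6, 51.6 and 29.9 CPM in mesothelial cells, against 0.887, 0.0632 and 1.69 CPM in fibroblasts and Krt17 with 9.34, 12.8 and 13.9 CPM in mesothelial cells, against 0.130, 0 and 0.138 CPM in fibroblasts. Krt15 had 5.40, 4.06 and 6.69 CPM in mesothelial cells and no count in fibroblasts (at least 178-fold higher), while Krt5, the usual partner of Krt14, had no count in any library. Vim, the filament protein of mesenchymal cells, had 1028, 1820 and 749.7 CPM in mesothelial cells, against 2054, 962 and 2338 CPM in fibroblasts, with overlapping groups and no call.

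Of 27 junction and polarity genes tested, 23 were higher in mesothelial cells and none lower, with a median log2 fold change of 3.24. Cldn15, a pore-forming claudin of tight junctions, had 784, 998 and 1029 CPM in mesothelial cells, against 22.6, 12.0 and 20.6 CPM in fibroblasts, with no overlap (log2 fold change 5.67 ± 0.30 SE, edgeR adjusted p 2.68e-08). Cldn1, a sealing claudin, rose by 40.2-fold to 356 ± 18.1 CPM, against 8.85 ± 1.55 CPM in fibroblasts, and the junctional adhesion molecule F11r by 39.9-fold to 691 ± 82.1 CPM, against 17.3 ± 3.86 CPM (SD, n = 3 each). The cytoplasmic plaque proteins Cgn (cingulin) and Tjp1 (ZO-1) rose by 5.72 and 1.24 on the log2 scale. Among cadherins, Cdh3 (P-cadherin) had 110.4, 98.2 and 127 CPM in mesothelial cells, against 1.88, 0.600 and 1.96 CPM in fibroblasts, and Cdh11 had 331, 317 and 297 CPM in mesothelial cells, against 28.5, 30.9 and 34.9 CPM in fibroblasts, whereas Cdh1 (E-cadherin) was scarce with 3.81, 3.24 and 3.15 CPM in mesothelial cells, against 1.25, 0.348 and 0.172 CPM in fibroblasts. All 3 were higher in mesothelial cells, by 6.23, 3.32 and 2.44 (3.65 for Cdh1 without fibroblast library 1). Of polarity genes, Crb2 of the apical Crumbs complex rose by 7.32 (8.30 without fibroblast library 1) and Pard6b by 5.90, while their partner Pard3 was not called (-0.24). Of desmosomal genes, Dsc2 stood at 10.2 ± 5.51 CPM in mesothelial cells and 0.112 ± 0.105 CPM in fibroblasts and Dsp at 3.12 ± 0.842 and 1.20 ± 0.491 CPM (SD, n = 3 each). The call of Dsp, at 1.41, was lost without mesothelial library 1 or 3 or fibroblast library 1 or 2, without the 2 libraries highest in acinar RNA (1.01) and with the replicate numbers as a block (edgeR adjusted p 0.0516).

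**Figure D2:**
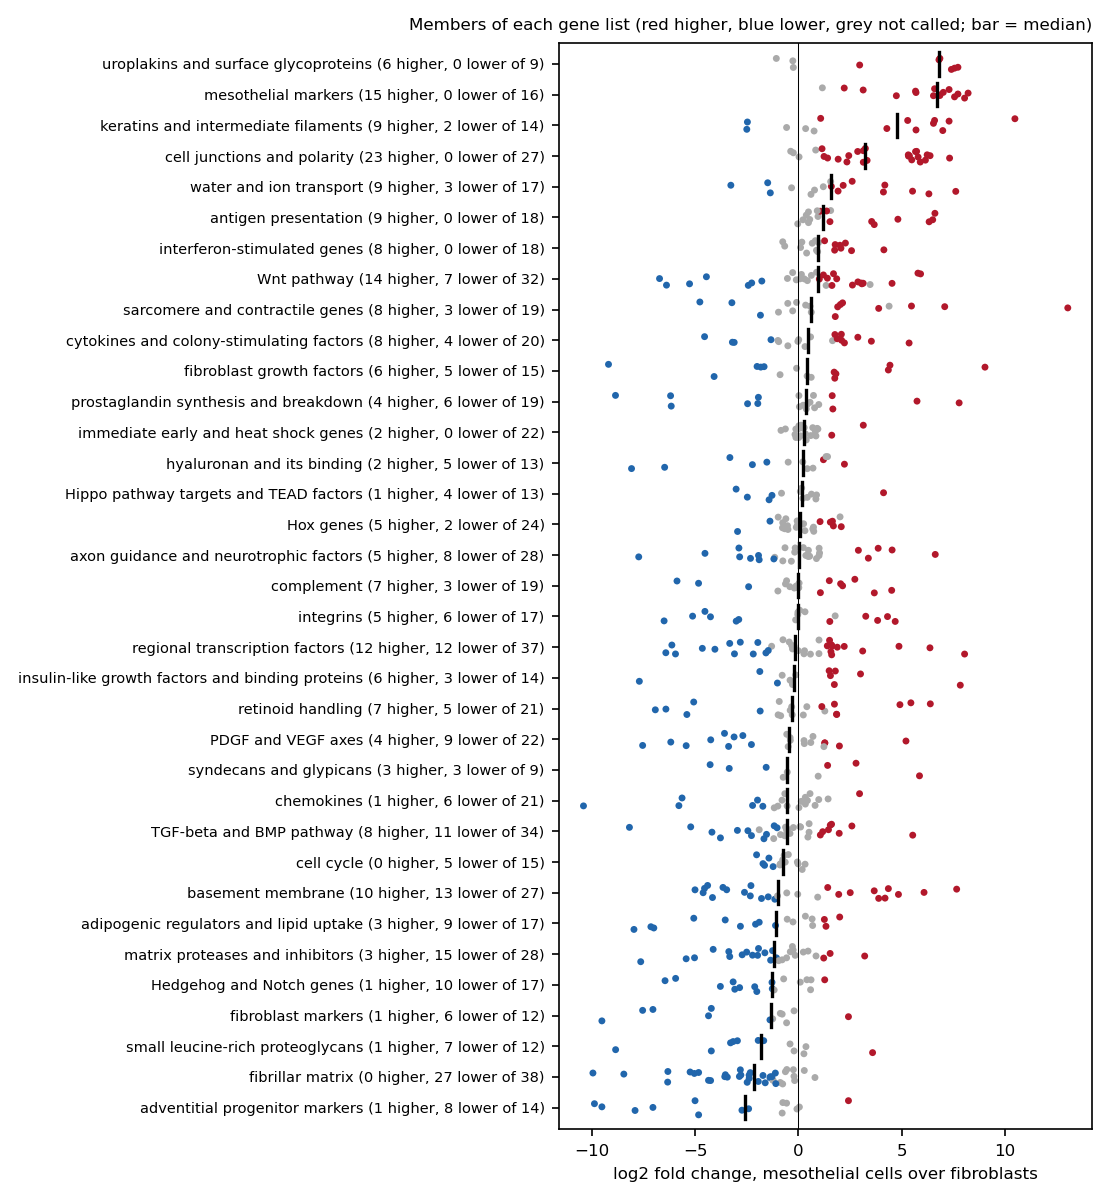
Log2 fold change of mesentery mesothelial cells over mesentery fibroblasts (horizontal axis) for the tested members of 35 gene lists (1 line each), with genes called higher in red, lower in blue and uncalled in grey, and a black bar at each list's median. Mesothelial markers and junction genes lie mostly to the right, fibrillar matrix to the left with none of its 38 genes called higher, and basement membrane genes fall on both sides.

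Surface glycoprotein and transport genes were more often higher than lower. Of 9 uroplakin and surface glycoprotein genes tested, 6 were higher and none lower, although Prg4 was called lower without mesothelial library 2 (-1.28). Podxl, the sialomucin podocalyxin, had 259, 259.7 and 317 CPM in mesothelial cells, against 2.27, 1.01 and 1.58 CPM in fibroblasts (log2 fold change 7.41 ± 0.31 SE, edgeR adjusted p 7.96e-09), and Cd200, a membrane glycoprotein that restrains myeloid cells, rose by 2.96. Of 17 water and ion transport genes tested, 9 were higher and 3 lower, with a median log2 fold change of 1.59. Scnn1a, the alpha subunit of the epithelial sodium channel, had 19.3, 31.8 and 16.7 CPM in mesothelial cells, against 0.104, 0.0948 and 0.138 CPM in fibroblasts, with no overlap (log2 fold change 7.62 ± 0.43 SE, edgeR adjusted p 2.52e-08). Its partner subunits Scnn1b and Scnn1g stayed below 0.2 CPM in all 6 libraries. The scaffold Slc9a3r1, which links transporters of microvilli to ezrin, averaged 312 ± 148 CPM in mesothelial cells and 6.78 ± 3.44 CPM in fibroblasts (SD, n = 3 each), and the water channel Aqp1 14.6 ± 4.10 and 3.20 ± 2.27 CPM (log2 fold change 2.17, or 2.90 without fibroblast library 1). The sodium pump subunit Atp1b1 rose by 2.60.

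Most fibrous matrix genes were lower. Of 38 fibrillar matrix genes, all tested, 27 were lower in mesothelial cells and none higher, with a median log2 fold change of -2.14. Fn1, which encodes fibronectin, had 179.8, 98.2 and 133 CPM in mesothelial cells, against 2926, 3689 and 5106 CPM in fibroblasts, with no overlap (log2 fold change -4.83 ± 0.32 SE, edgeR adjusted p 2.05e-07). Fbn1, the scaffold of microfibrils, fell by 11.8-fold and elastin (Eln) by 6.90-fold, with 17.1 ± 4.76 CPM in mesothelial cells and 118 ± 30.4 CPM in fibroblasts (SD, n = 3 each). The fibril-associated Col14a1 had 42.0, 47.4 and 24.2 CPM in mesothelial cells, against 752, 511 and 1060 CPM in fibroblasts, and the multiplexin Col15a1 had 0.960, 0.682 and 1.56 CPM in mesothelial cells, against 86.1, 60.9 and 111 CPM in fibroblasts. Postn, which encodes the matricellular protein periostin, had 5.53, 2.32 and 2.63 CPM in mesothelial cells, against 1178, 1128 and 1422 CPM in fibroblasts, with no library of either group near the other. Pcolce2, an enhancer of procollagen processing, fell by 9.95 on the log2 scale. Efemp1 (fibulin-3) had 4250.2, 4477 and 4649 CPM in mesothelial cells, against 2308, 2632 and 2742 CPM in fibroblasts, above all fibroblast libraries but short of the required fold. Tnc, the wound matrix protein tenascin C, had 2.12, 0 and 1.04 CPM in mesothelial cells, against 22.3, 76.6 and 27.7 CPM in fibroblasts , a log2 fold change of -5.24 (-6.30 without mesothelial library 1 and -4.50 without fibroblast library 2). The call was lost without fibroblast library 3, where the adjusted p by edgeR was 0.0579, and without a filter on low counts (0.0502).

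Small leucine-rich proteoglycans bind collagen fibrils and set their spacing. Of 12 tested, 7 were lower and 1 higher. Lum, which encodes lumican, had 215, 286 and 270.3 CPM in mesothelial cells, against 5126, 4443 and 4779 CPM in fibroblasts (log2 fold change -4.22 ± 0.24 SE, edgeR adjusted p 5.19e-08). Bgn (biglycan) fell by 8.94-fold, and Aspn (asporin) had 0.985, 1.09 and 2.89 CPM in mesothelial cells, against 772, 708 and 791 CPM in fibroblasts (log2 fold change -8.85, or -9.53 without mesothelial library 3). Fmod, which encodes fibromodulin, was the exception, with 1244, 1436 and 1341 CPM in mesothelial cells, against 159.7, 69.1 and 105 CPM in fibroblasts, so that every mesothelial library exceeded every fibroblast library (log2 fold change 3.59 ± 0.30 SE, edgeR adjusted p 1.57e-06). Per kilobase of gene model, Fmod stood at 405 CPM in mesothelial cells and 33.7 CPM in fibroblasts, while Lum stood at 105 and 1954 CPM.

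Hyaluronan, the main sugar of the peritoneal surface film, is made by 3 synthases. Has1 had 143, 246 and 246 CPM in mesothelial cells, against 1265, 409 and 1306 CPM in fibroblasts, and Has2 0.151, 0 and 0.0649 CPM in mesothelial cells, against 24.0, 16.9 and 26.8 CPM in fibroblasts, both lower in mesothelial cells (-2.23 and -8.08 on the log2 scale). Without mesothelial library 1, Has2 was lower by 679-fold (95% interval 188 to 5607), and without a filter on low counts Has1 lost its call (edgeR adjusted p 0.0701). Has3 was too low to be tested. The hyaluronan-binding proteins Tnfaip6 and Vcan (versican) also fell, Tnfaip6 with 14.8, 18.1 and 18.4 CPM in mesothelial cells, against 1622, 1125 and 1827 CPM in fibroblasts, as did the hyaluronan receptor Cd44 by 2.89-fold. In all, 5 of 13 tested genes of the hyaluronan list were lower and 2 higher (53.8% called, beside 22.2% of all genes). The number higher was 1 without the 2 libraries highest in acinar RNA, and also without mesothelial library 1 or 2 or fibroblast library 2 or 3. Cell-surface heparan sulfate carriers were exchanged, with 3 of 9 tested higher and 3 lower. Sdc4 (syndecan 4) had 2632, 2987 and 5689 CPM in mesothelial cells, against 549.7, 506 and 582 CPM in fibroblasts, whereas Sdc3 had 0.455, 0.239 and 0.617 CPM in mesothelial cells, against 7.93, 6.67 and 11.2 CPM in fibroblasts and Gpc6 16.8, 16.6 and 16.2 CPM in mesothelial cells, against 166, 137 and 202 CPM in fibroblasts. Sdc4 rose by 2.79, and Sdc3 and Gpc6 changed by -4.28 and -3.35.

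Genes of proteases that cut matrix, and of their inhibitors, were more often lower than higher. Of 28 matrix protease and inhibitor genes tested, 15 were lower and 3 higher. Mmp2 (gelatinase A) had 5.33, 1.53 and 3.38 CPM in mesothelial cells, against 687, 550.5 and 830.5 CPM in fibroblasts, a log2 fold change of -7.64 ± 0.45 SE (edgeR adjusted p 4.41e-07), and Mmp3 (stromelysin 1) fell to 14.1 ± 3.39 CPM in mesothelial cells, against 461 ± 161 CPM in fibroblasts (SD, n = 3 each). The aggrecan-cutting enzymes Adamts4 and Adamts5 fell by 17.5-fold and 10.03-fold. Plaur, the urokinase receptor that focuses plasmin at the cell surface, rose, with 223, 275 and 407 CPM in mesothelial cells, against 37.0, 25.7 and 35.2 CPM in fibroblasts. The tissue plasminogen activator Plat had 1436, 1344 and 2062 CPM in mesothelial cells, against 1141, 1134 and 1235 CPM in fibroblasts and was not called.

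Basement membrane genes were split between the groups. Of 27, all tested, 10 were higher and 13 lower, with a median log2 fold change of -1.01. The chains of type IV collagen, whose genes sit head to head in pairs on opposite strands, differed by pair. Col4a1 and Col4a2, with 21 bases between their outermost starts, fell together. Col4a1 had 12.0, 14.6 and 11.9 CPM in mesothelial cells, against 401, 329 and 509.8 CPM in fibroblasts (log2 fold change -5.01 ± 0.25 SE, edgeR adjusted p 1.7e-08), and Col4a2 had 6.44, 5.59 and 8.21 CPM in mesothelial cells, against 159, 125 and 212 CPM in fibroblasts (-4.61). Col4a6 rose, with 113, 115 and 131 CPM in mesothelial cells, against 8.53, 5.82 and 9.95 CPM in fibroblasts (log2 fold change 3.89 ± 0.24 SE, edgeR adjusted p 8.58e-08). Its neighbour Col4a5, 1309 bases away by the same measure, had 157, 131 and 199.8 CPM in mesothelial cells, against 60.1, 87.7 and 108 CPM in fibroblasts, and its log2 fold change of 0.93 ± 0.24 SE was just short of the required size. Col4a5 was called higher without mesothelial library 2 or fibroblast library 3. Col4a3 fell by 2.21-fold but lost its call without mesothelial library 1 (-1.17, edgeR adjusted p 0.0577) and without mesothelial library 2 (-0.85), and its partner Col4a4, 72 bases away, was not called.

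Laminins are trimers of an alpha, a beta and a gamma chain. The chains of the mesenchymal laminins, Lama2, Lama4, Lamb1 and Lamc1, were all lower in mesothelial cells, by -2.33, -2.61, -2.30 and -3.65 on the log2 scale. Lamc1 had 54.2, 43.3 and 56.7 CPM in mesothelial cells, against 519, 659.6 and 762 CPM in fibroblasts, with no overlap. The epithelial alpha chains Lama3 and Lama5 were higher, at 10.7 ± 1.47 CPM in mesothelial cells and 0.510 ± 0.172 CPM in fibroblasts, and at 4.22 ± 1.499 and 0.209 ± 0.239 CPM (SD, n = 3 each), with log2 fold changes of 4.35 and 4.19 (5.60 for Lama5 without fibroblast library 1). Lamc3, the gamma-3 chain, showed the largest rise of the list, with 116, 129 and 113 CPM in mesothelial cells, against 0.835, 0.632 and 0.241 CPM in fibroblasts (log2 fold change 7.66 ± 0.33 SE, edgeR adjusted p 8.38e-09). Per kilobase of gene model Lamc3 stood at 19.6 CPM in mesothelial cells and 0.0935 CPM in fibroblasts, and Lamc1 at 6.21 and 78.2 CPM, so that Lamc3 was the more abundant gamma chain in mesothelial cells and Lamc1 in fibroblasts. Of the nidogens, which link laminin to collagen IV, Nid1 had 143, 143 and 144 CPM in mesothelial cells, against 2209, 2314 and 3156 CPM in fibroblasts, while Nid2 had 492, 497 and 441 CPM in mesothelial cells, against 108, 98.5 and 163 CPM in fibroblasts. Nid1 fell by 17.9-fold, and Nid2 rose by 3.87-fold. The Fraser complex gene Fras1 rose by 3.67 and the integrin ligand nephronectin (Npnt) by 4.84.

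Integrins, the receptors for these matrices, were divided as well, with 5 of 17 tested higher and 6 lower. The share called was 64.7%, beside 22.2% of all genes. The laminin-binding subunits Itga3, Itga6 and Itgb4 rose by 4.69, 3.83 and 3.26 (4.50 for Itga6 without fibroblast library 1). Itga3 had 53.3, 41.2 and 55.7 CPM in mesothelial cells, against 1.67, 2.75 and 1.41 CPM in fibroblasts. The fibronectin receptor subunit Itga5 fell, with 17.3, 17.1 and 19.1 CPM in mesothelial cells, against 139.9, 118 and 174 CPM in fibroblasts, the collagen receptor subunit Itga11 fell, with 2.27, 3.31 and 3.08 CPM in mesothelial cells, against 195, 257 and 331 CPM in fibroblasts, and Itga8, whose ligand is nephronectin, had 0.429, 0.375 and 0.0649 CPM in mesothelial cells, against 10.3, 9.77 and 11.6 CPM in fibroblasts. Their log2 fold changes were -3.01, -6.50 and -5.12.

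**Figure D3:**
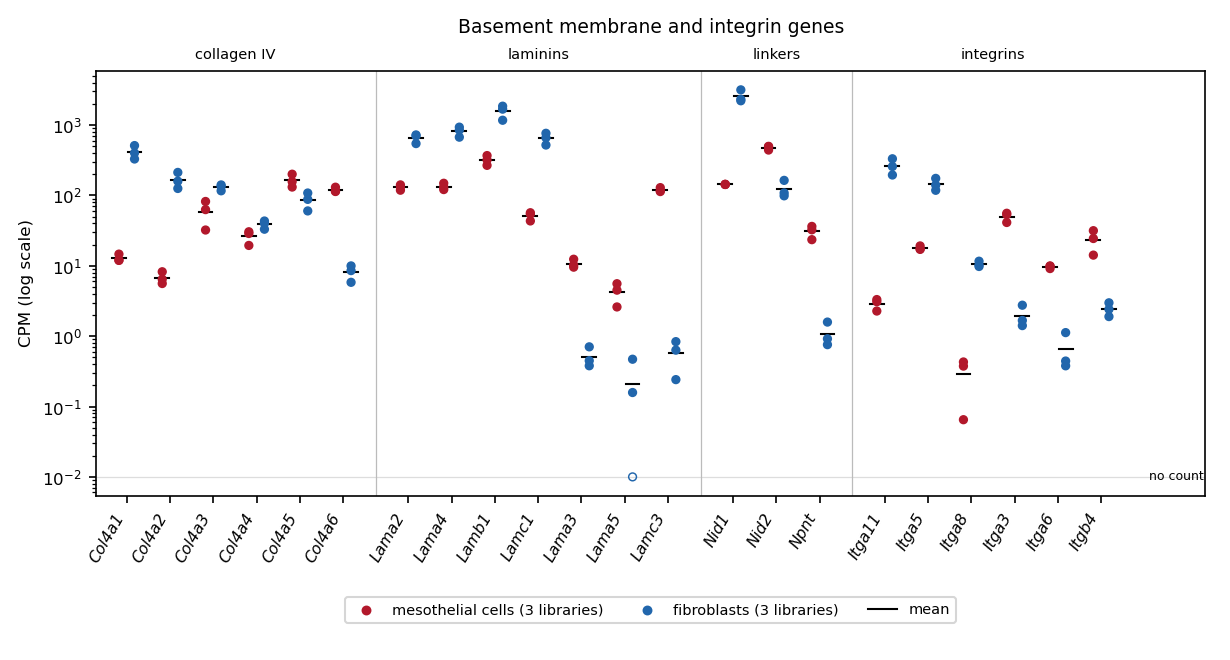
CPM on a log scale (vertical axis) in each library for collagen IV, laminin, linker and integrin genes (horizontal axis), with mesothelial cells in red left of fibroblasts in blue, black dashes at group means and open circles at the bottom for libraries with no count. Col4a1, Col4a2, Lamc1, Nid1 and Itga11 are higher in every fibroblast library, and Col4a6, Lama3, Lamc3, Nid2 and Itga3 in every mesothelial library.

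Several genes of MHC class II, the molecules that present extracellular peptides to CD4 T cells, were higher in mesothelial cells. Promoters of this family are known for a conserved X box, bound by RFX factors, and a Y box, bound by NF-Y, which together recruit the coactivator encoded by Ciita. The 150 bases before the start of 3 of the called genes are given here from RefSeq on GRCm38.p6, to show these boxes beside the values. Capitals mark an X box-like run (CTNGNAACT) and a Y box (TGATTGG), letters that were chosen after reading these sequences. Each was searched by itself on both strands, without a check for overlap between them.
H2-Aa, chr17:34287824-34287973, minus strand: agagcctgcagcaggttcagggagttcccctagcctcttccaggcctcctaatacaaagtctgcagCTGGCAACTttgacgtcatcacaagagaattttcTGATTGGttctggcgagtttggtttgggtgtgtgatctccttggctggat
H2-Eb1, chr17:34305717-34305866, plus strand: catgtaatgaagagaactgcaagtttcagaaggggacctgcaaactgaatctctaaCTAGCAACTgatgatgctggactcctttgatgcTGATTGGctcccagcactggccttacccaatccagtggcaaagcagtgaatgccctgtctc
H2-DMb1, chr17:34153041-34153190, plus strand: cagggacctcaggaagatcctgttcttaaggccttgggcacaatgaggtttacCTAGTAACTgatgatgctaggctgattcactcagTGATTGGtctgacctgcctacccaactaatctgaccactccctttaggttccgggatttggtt
In these 3 windows 25, 24 and 25 bases separate the boxes, and the Y box starts 50, 61 and 63 bases before the gene start. Of 32851 such windows, each the 150 bases before a gene start in RefSeq, 2.0% held the X box-like run, 5.71% the Y box and 0.116% both. On the strand of the gene, in this order and with at most 30 bases between them, the boxes occurred in 5 windows (0.0152%), those of H2-Aa, H2-Eb1, H2-DMb1, 1700048F04Rik and BC051142. No usable window was available for H2-Ab1, Cd74 or Ciita, so these genes were not searched. Neither run of letters was in either window of H2-DMa, which was also called higher, and that says nothing of the factors. A match of letters is a description of the window, and no binding was measured.

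Cd74, the invariant chain that escorts class II molecules, had 616, 803 and 1772 CPM in mesothelial cells, against 17.6, 6.10 and 8.88 CPM in fibroblasts. Every mesothelial library exceeded every fibroblast library, and mesothelial library 3 was the highest (log2 fold change 6.61 ± 0.62 SE, edgeR adjusted p 8.77e-05; 6.002 without that library). H2-Aa had 103, 158 and 204 CPM in mesothelial cells, against 2.24, 1.93 and 1.58 CPM in fibroblasts (log2 fold change 6.33 ± 0.31 SE, edgeR adjusted p 1.93e-08). H2-Ab1, the beta chain paired with it, had 118, 193 and 147 CPM in mesothelial cells, against 2.61, 1.07 and 1.27 CPM in fibroblasts, and H2-Eb1 had 88.7, 138 and 140.1 CPM in mesothelial cells, against 6.08, 3.26 and 3.61 CPM in fibroblasts. H2-DMa and H2-DMb1, which load peptides onto class II molecules, rose by 3.55 and 3.67. Ciita itself was scarce, with 1.57, 0.205 and 1.59 CPM in mesothelial cells, against 0.261, 0.442 and 0.482 CPM in fibroblasts, overlapping groups and no call. Without mesothelial library 2 Ciita was called higher. Reads of these polymorphic, similar genes may be shared among family members, so values of single MHC genes are uncertain.

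Of the class I genes, H2-K1 had 955, 988 and 880.4 CPM in mesothelial cells, against 380, 223 and 377 CPM in fibroblasts, a log2 fold change of 1.53, whereas H2-D1 and the common light chain B2m were not called, at 0.49 and 0.38. The immunoproteasome subunit Psmb9 rose by 1.36, and tapasin (Tapbp) by 1.05, a call lost for Tapbp without mesothelial library 2 (0.86) or fibroblast library 2 (0.85). In all, 9 of 18 antigen presentation genes were higher and none lower, with a median log2 fold change of 1.21. Of 18 interferon-stimulated genes 8 were higher and none lower, with a median of 0.95. Ifi44 had 33.99, 29.3 and 40.5 CPM in mesothelial cells, against 1.80, 2.91 and 1.17 CPM in fibroblasts, a log2 fold change of 4.14, and the guanylate-binding protein Gbp2 623, 836 and 1008 CPM in mesothelial cells, against 149, 124 and 142 CPM in fibroblasts, a log2 fold change of 2.57. Ifit1 was above the fibroblast libraries in all mesothelial libraries but fell short of the required fold. It was called higher without mesothelial library 2.

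Macrophage and dendritic cell markers are given beside these values, since such cells carry class II molecules. Of 18 markers 12 were tested, 4 were higher and none lower, or 1 lower without mesothelial library 3. The share called was 33.3%, beside 22.2% of all genes. The summed level was 192, 141 and 152 CPM in mesothelial cells and 46.8, 30.7 and 23.7 CPM in fibroblasts. Csf1r, the receptor for macrophage colony-stimulating factor, made up much of the mesothelial sum with 90.4, 95.7 and 89.3 CPM in mesothelial cells, against 6.29, 1.61 and 2.10 CPM in fibroblasts (log2 fold change 4.76 ± 0.47 SE, edgeR adjusted p 6.76e-05; 5.60 without fibroblast library 1). Mertk, a receptor for apoptotic cells, rose by 1.86, the mannose receptor Mrc1 by 2.98 and the lysosomal Cd68 by 2.87. Several other genes of the list were at or near 0. Spi1, the transcription factor PU.1, had no count in any mesothelial library, Itgax and Fcgr1 stayed below 0.1 CPM in mesothelial cells, and C1qa below 0.3 CPM. Adgre1, encoding F4/80, had 0.404, 0.0341 and 0.162 CPM in mesothelial cells, against 0.417, 0.569 and 0 CPM in fibroblasts, and the lysozyme gene Lyz2 had 7.17, 0.409 and 7.76 CPM in mesothelial cells, against 24.5, 8.22 and 7.37 CPM in fibroblasts.

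**Figure D4:**
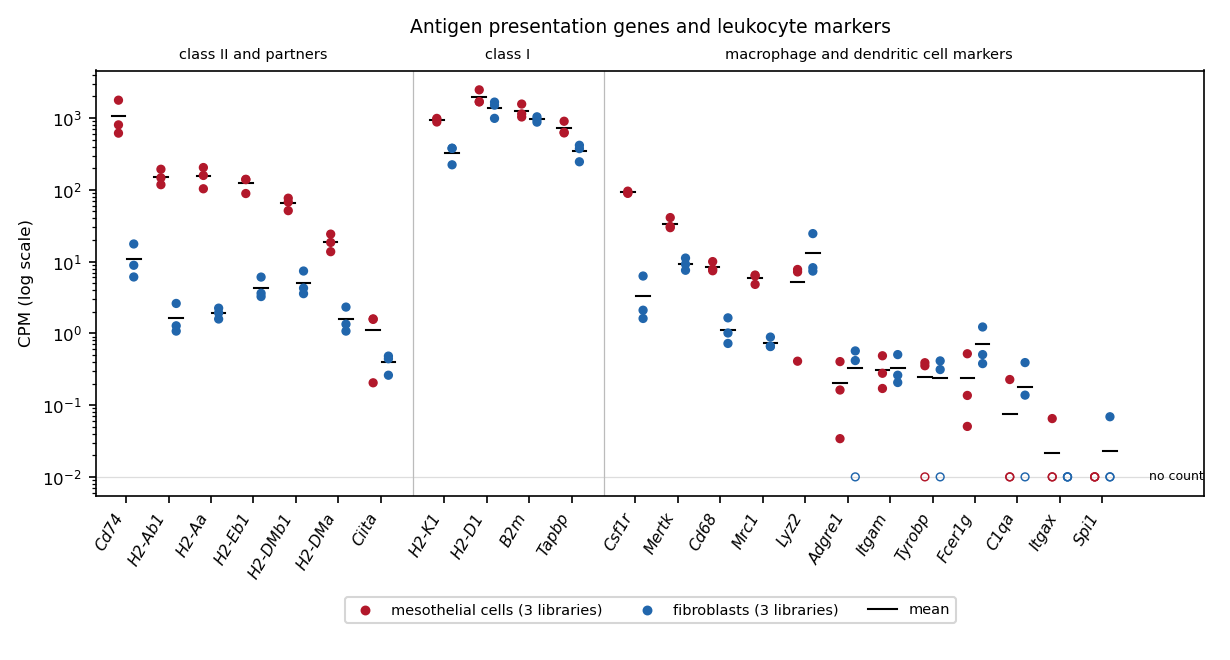
CPM on a log scale (vertical axis) in each library for class II genes, class I genes and macrophage or dendritic cell markers (horizontal axis), with mesothelial cells in red left of fibroblasts in blue, black dashes at group means and open circles at the bottom for libraries with no count. Cd74, H2-Ab1, H2-Aa and H2-Eb1 are higher in every mesothelial library, as are Csf1r and Mertk, while Itgax and Spi1 lie at or near the bottom in both groups.

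Of 19 complement genes tested, 7 were higher and 3 lower (52.6% called, beside 22.2% of all genes), with a median log2 fold change of -0.001. Besides C3, the classical pathway protease C2 had 1744, 2311 and 2373 CPM in mesothelial cells, against 199, 154 and 151 CPM in fibroblasts, and Cfb, its counterpart in the alternative pathway, 1934, 2534 and 3233 CPM in mesothelial cells, against 434, 387 and 338 CPM in fibroblasts. Both rose without overlap, by 3.67 and 2.73. Clu, the secreted chaperone clusterin that blocks the terminal complex, had 2695, 3367 and 3712 CPM in mesothelial cells, against 171, 110.3 and 146 CPM in fibroblasts (log2 fold change 4.51 ± 0.27 SE, edgeR adjusted p 6.96e-08). C7, part of the terminal complex, moved the other way, with 35.9, 39.0 and 64.9 CPM in mesothelial cells, against 3212, 2649.8 and 2366 CPM in fibroblasts (log2 fold change -5.88 ± 0.31 SE, edgeR adjusted p 3.06e-08). The surface inhibitor Cd55 fell by 5.32-fold, and Cd59a, an inhibitor of the terminal complex, rose by 4.12-fold. C4b rose by 1.06 but lost its call without mesothelial library 3 (0.78) or without fibroblast library 1 (0.98).

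Cytokines and chemokines were divided. Of 20 cytokine genes tested, 8 were higher and 4 lower. Il16 had 104, 84.2 and 85.8 CPM in mesothelial cells, against 3.10, 1.58 and 1.93 CPM in fibroblasts, Il18 76.6, 109.9 and 96.4 CPM in mesothelial cells, against 13.8, 13.2 and 11.5 CPM in fibroblasts and Il7, a growth factor of lymphocytes, 58.2, 56.9 and 45.0 CPM in mesothelial cells, against 11.8, 8.79 and 13.7 CPM in fibroblasts. Their log2 fold changes were 5.36, 2.88 and 2.23. Il34 and Kitl, ligands of Csf1r and Kit, rose by 2.08 and 1.77, while Csf1, the other ligand of Csf1r, had 119, 145 and 88.3 CPM in mesothelial cells, against 108, 194 and 383 CPM in fibroblasts and was not called. Without fibroblast library 1 Csf1 was called lower. Il6 fell, with 28.9, 46.3 and 49.7 CPM in mesothelial cells, against 474, 208 and 397 CPM in fibroblasts, as did Lif and Tslp, by 9.17-fold and 23.3-fold. Of 21 chemokine genes tested, 6 were lower and 1 higher, or 2 higher without mesothelial library 3. The share called was 33.3%, beside 22.2% of all genes. Ccl11, which attracts eosinophils, had 0.657, 0.0341 and 2.11 CPM in mesothelial cells, against 1316, 1208 and 1274 CPM in fibroblasts (log2 fold change -10.41 ± 0.81 SE, edgeR adjusted p 4.39e-05; -11.68 without mesothelial library 3). Cxcl12, which retains lymphocytes and progenitors in tissues, had 9.70, 2.15 and 1.82 CPM in mesothelial cells, against 328, 166 and 278 CPM in fibroblasts (log2 fold change -5.79 ± 0.80 SE, edgeR adjusted p 0.00255; -7.00 without mesothelial library 1). The membrane-bound chemokine Cx3cl1 was the single rise, at low levels, with 6.05 ± 4.11 CPM in mesothelial cells and 0.760 ± 0.256 CPM in fibroblasts (SD, n = 3 each; 2.26 without mesothelial library 2).

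Ligands and receptors of the FGF family were divided between the groups. Fgf1, which signals through all FGF receptors, had 1975, 2112 and 2702 CPM in mesothelial cells, against 107, 98.9 and 126 CPM in fibroblasts, with no overlap (log2 fold change 4.35 ± 0.24 SE, edgeR adjusted p 4.36e-08). Fgf9, an epithelial ligand for receptors of the mesenchyme, had 82.1, 82.2 and 107 CPM in mesothelial cells, against 4.51, 4.39 and 3.61 CPM in fibroblasts (log2 fold change 4.43 ± 0.22 SE, edgeR adjusted p 1.93e-08). Fgf7 and Fgf10, mesenchymal ligands for the epithelial form of Fgfr2, were lower. Fgf7 had 0.379, 0.0341 and 0.0325 CPM in mesothelial cells, against 114, 95.9 and 91.0 CPM in fibroblasts, and Fgf10 1.01, 0 and 0.779 CPM in mesothelial cells, against 8.58, 11.5 and 12.0 CPM in fibroblasts, log2 fold changes of -9.20 and -4.08 (-4.71 for Fgf10 without mesothelial library 1, where Fgf7 was lower by 3055-fold (95% interval 846 to 25232)). Among receptors, Fgfr1 fell by 3.54-fold, the scarce Fgfr3 rose by 3.52-fold, and Fgfr2 was not called. Fgfbp1, which frees FGFs from matrix, had no count in fibroblasts and was at least 64.2-fold higher. In all, 6 of 15 tested genes of the FGF list were higher and 5 lower (73.3% called, beside 22.2% of all genes).

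Of 32 Wnt pathway genes tested, 14 were higher in mesothelial cells and 7 lower, with a median log2 fold change of 0.94. Several ligands were higher. Wnt2b had 98.2, 119 and 65.2 CPM in mesothelial cells, against 11.3, 10.5 and 12.6 CPM in fibroblasts, Wnt9a 42.1, 52.0 and 26.2 CPM in mesothelial cells, against 4.70, 4.14 and 7.57 CPM in fibroblasts and Wnt4 16.3, 14.7 and 18.3 CPM in mesothelial cells, against 2.14, 2.24 and 3.72 CPM in fibroblasts, log2 fold changes of 3.04, 2.88 and 2.62. R-spondins, which amplify Wnt signals through the Lgr receptors, were exchanged. Rspo1 had 69.1, 96.3 and 56.0 CPM in mesothelial cells, against 8.82, 6.61 and 9.78 CPM in fibroblasts, whereas Rspo3 had 0.657, 0.648 and 1.01 CPM in mesothelial cells, against 27.2, 25.3 and 36.7 CPM in fibroblasts, log2 fold changes of 3.13 and -5.27. Lgr5 had 13.5, 11.5 and 13.1 CPM in mesothelial cells, against 0.0261, 0.158 and 0.551 CPM in fibroblasts (log2 fold change 5.79 ± 0.50 SE, edgeR adjusted p 1.61e-06; 7.11 without fibroblast library 3 and 5.14 without fibroblast library 1). Axin2, a common target of the pathway, rose by 2.64-fold to 14.7 ± 2.19 CPM in mesothelial cells, against 5.60 ± 0.665 CPM in fibroblasts (SD, n = 3 each). The secreted antagonists Sfrp1 and Sfrp4 fell, Sfrp1 with 4.32, 0.648 and 3.28 CPM in mesothelial cells, against 228, 268 and 209 CPM in fibroblasts and Sfrp4 with 1.97, 2.15 and 1.95 CPM in mesothelial cells, against 253, 167 and 222 CPM in fibroblasts, while Sfrp2 and Dkk3 rose by 1.70 and 1.62.

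In the TGF-beta and BMP pathway 8 of 34 tested genes were higher and 11 lower, beside 12.5% and 9.72% of all genes. Without the 2 libraries highest in acinar RNA 5 were higher. Bmp4 had 131, 132 and 102 CPM in mesothelial cells, against 26.1, 14.5 and 20.1 CPM in fibroblasts (log2 fold change 2.59 ± 0.24 SE, edgeR adjusted p 3.09e-06), and the type I receptor Bmpr1b rose by 5.53 to 4.85 ± 1.29 CPM in mesothelial cells, against 0.0962 ± 0.0844 CPM in fibroblasts (SD, n = 3 each). Gdf10 (BMP3B) had 1.34, 0.375 and 0.844 CPM in mesothelial cells, against 256, 216 and 298 CPM in fibroblasts, with no overlap (log2 fold change -8.18 ± 0.37 SE, edgeR adjusted p 1.64e-08). Among the secreted BMP modulators Bmper fell, with 8.11, 7.13 and 11.01 CPM in mesothelial cells, against 117, 124 and 119 CPM in fibroblasts, and the scarce Grem1 fell too. Their log2 fold changes were -3.78 and -4.19 (-4.93 for Grem1 without mesothelial library 1). Fstl1, the follistatin-like glycoprotein, had 615, 716 and 895 CPM in mesothelial cells, against 5318, 5497 and 6443 CPM in fibroblasts, and Ltbp1, which anchors latent TGF-beta in matrix, 9.17, 6.07 and 6.07 CPM in mesothelial cells, against 217, 281 and 297 CPM in fibroblasts. Fstl1 fell by 7.75-fold and Ltbp1 by 37.1-fold.

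Insulin-like growth factor genes changed in both directions. The ligand Igf1 had 127, 171 and 196 CPM in mesothelial cells, against 645, 548 and 614 CPM in fibroblasts, a fall of 3.65-fold without overlap, and the receptor Igf1r was not called. The binding proteins Igfbp2, Igfbp3, Igfbp5 and Igfbp6 rose by 7.84, 1.74, 1.55 and 1.79, and Igfbp5 had 799.7, 788 and 863 CPM in mesothelial cells, against 288, 255 and 295 CPM in fibroblasts. The call of Igfbp6 was lost without a filter on low counts (edgeR adjusted p 0.0773). The imprinted noncoding RNA H19 was lower by 249.8-fold (95% interval 68.8 to 2068), with 2 counts over the mesothelial group. Counts over the list were 6 higher and 3 lower of 14 tested.

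**Figure D5:**
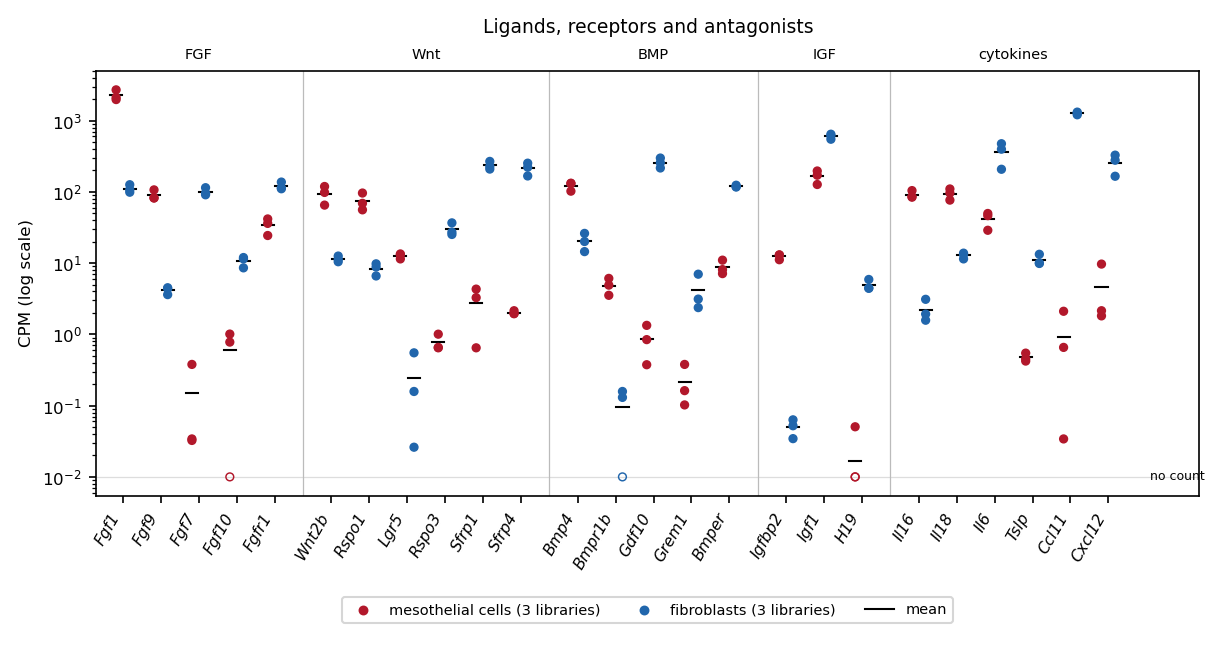
CPM on a log scale (vertical axis) in each library for FGF, Wnt, BMP, IGF, cytokine and chemokine genes (horizontal axis), with mesothelial cells in red left of fibroblasts in blue, black dashes at group means and open circles at the bottom for libraries with no count. Fgf1, Fgf9, Wnt2b, Rspo1, Lgr5 and Bmp4 are higher in every mesothelial library, and Fgf7, Rspo3, Gdf10, Il6 and Ccl11 in every fibroblast library.

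Hedgehog and Notch genes were mostly lower, with 10 of 17 tested lower and 1 higher and a median log2 fold change of -1.28. Hhip, a surface protein that binds Hedgehog ligand and is induced by it, had 0.0758, 0.170 and 0.195 CPM in mesothelial cells, against 15.5, 12.5 and 10.1 CPM in fibroblasts and fell by 87.9-fold. The transducer Smo was the rise, with 72.0, 78.8 and 73.5 CPM in mesothelial cells, against 28.7, 31.2 and 33.0 CPM in fibroblasts, while the Hedgehog target Gli1 was not called (-0.72). Notch1, its ligand Jag1 and the target Hes1 fell by 8.47-fold, 4.34-fold and 7.20-fold. Of the Hippo list 1 of 13 tested was higher, the scarce transcription factor Tead4, and 4 were lower (38.5% called, beside 22.2% of all genes). Among the lower ones was the receptor kinase Axl, with 238, 246 and 193 CPM in mesothelial cells, against 1120.1, 958 and 1682 CPM in fibroblasts. Without mesothelial library 3 or fibroblast library 3, 2 genes were higher.

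In the PDGF and VEGF axes 4 of 22 tested genes were higher and 9 lower, or 2 higher without the 2 libraries highest in acinar RNA. The share called was 59.1%, beside 22.2% of all genes. Pdgfrb fell by 6.46-fold, beside Pdgfra, on which the cells were sorted and whose fall is no finding. The coreceptor Nrp1 had 9.12, 5.90 and 9.19 CPM in mesothelial cells, against 389, 342 and 319 CPM in fibroblasts, a fall of 43.2-fold. The PDGF ligands Pdgfa and Pdgfc rose by 1.28 and 1.28, but Pdgfa lost its call without mesothelial library 2 (0.96) or fibroblast library 1 (1.08), and Pdgfc without fibroblast library 1 (0.94), so that 2 of the 4 rises remained without fibroblast library 1. Kdr, the main receptor of VEGF-A, had 71.5, 84.0 and 73.3 CPM in mesothelial cells, against 3.55, 1.17 and 1.34 CPM in fibroblasts (log2 fold change 5.21 ± 0.38 SE, edgeR adjusted p 1.67e-06; 5.89 without fibroblast library 1), and the scarce Vegfa fell by 8.66-fold.

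Transcription factors of the visceral mesoderm and of mesenchyme were divided, with 12 of 37 tested regional factors higher and 12 lower. Wt1, the Wilms tumour factor that marks mesothelium, had 282, 201 and 292 CPM in mesothelial cells, against 57.7, 52.5 and 56.6 CPM in fibroblasts. Both groups expressed it, and the mesothelial libraries were all higher (log2 fold change 2.22 ± 0.20 SE, edgeR adjusted p 2.99e-06). Bnc1, a zinc finger factor of epithelia, had 99.7, 84.1 and 99.3 CPM in mesothelial cells, against 0.835, 0.0632 and 0.0688 CPM in fibroblasts, a log2 fold change of 8.04 (10.37 without fibroblast library 1). Isl1, a LIM-homeodomain factor, had 195, 203 and 313 CPM in mesothelial cells, against 2.66, 2.47 and 3.51 CPM in fibroblasts (log2 fold change 6.37 ± 0.29 SE, edgeR adjusted p 1.01e-08). Among GATA factors Gata6 had 80.8, 68.6 and 127 CPM in mesothelial cells, against 23.5, 28.3 and 23.1 CPM in fibroblasts and Gata5 15.6, 15.2 and 15.7 CPM in mesothelial cells, against 0.783, 0.442 and 0.310 CPM in fibroblasts, log2 fold changes of 1.88 and 4.87, while Gata4 stayed below 0.2 CPM in all libraries. Prrx1, Tcf21 and Meox2, factors of the mesenchyme of developing limbs, organs and muscle, were among the lower ones. Prrx1 had 1.64, 0.375 and 0.584 CPM in mesothelial cells, against 88.0, 68.8 and 77.7 CPM in fibroblasts, Tcf21 5.56, 8.29 and 5.42 CPM in mesothelial cells, against 182, 109 and 193 CPM in fibroblasts and Meox2 0.960, 0.205 and 0.357 CPM in mesothelial cells, against 55.8, 26.0 and 31.5 CPM in fibroblasts, log2 fold changes of -6.42, -4.65 and -6.13 (-7.31 for Prrx1 and -7.03 for Meox2 without mesothelial library 1). Of the factors that repress epithelial genes, Zeb1, Zeb2, Snai1 and Snai2 fell by 2.75-fold, 7.04-fold, 10.03-fold and 2.98-fold. Nkx2-3, a factor of gut and spleen mesenchyme, had 3.48, 6.07 and 4.09 CPM in mesothelial cells, against 6.63, 4.20 and 7.68 CPM in fibroblasts and was not called.

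Hox genes record position along the body axis. Of 24 tested, 5 were higher and 2 lower, a share of 29.2% beside 22.2% of all genes, and their median log2 fold change was 0.06. Without the 2 libraries highest in acinar RNA 3 were higher and 1 lower. The number higher was also 3 without mesothelial library 3 or fibroblast library 3, and the number lower 1 without mesothelial library 2 or fibroblast library 1 or 3. Hoxa7 had 32.5, 48.5 and 35.8 CPM in mesothelial cells, against 11.5, 11.1 and 13.6 CPM in fibroblasts, a log2 fold change of 1.69, and Hoxb5 fell by 7.71-fold to 0.761 ± 0.273 CPM in mesothelial cells, against 5.85 ± 1.21 CPM in fibroblasts (SD, n = 3 each).

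Retinoid genes changed in both directions. Retinoic acid is made from retinol by alcohol and short-chain dehydrogenases and then by retinaldehyde dehydrogenases. Of 21 tested genes, 7 were higher and 5 lower (57.1% called, beside 22.2% of all genes). Dhrs9, a retinol dehydrogenase, had 82.2, 91.7 and 91.3 CPM in mesothelial cells, against 1.33, 1.77 and 3.06 CPM in fibroblasts (log2 fold change 5.44 ± 0.30 SE, edgeR adjusted p 3.62e-08), and Stra6, the receptor that takes up retinol, 62.4, 46.2 and 60.03 CPM in mesothelial cells, against 2.19, 0.948 and 2.44 CPM in fibroblasts, a log2 fold change of 4.91. Of the retinaldehyde dehydrogenases, Aldh1a2 rose by 3.61-fold, Aldh1a3 had 3.56, 1.5003 and 2.37 CPM in mesothelial cells, against 115, 109.9 and 93.9 CPM in fibroblasts and fell by 42.2-fold, and Aldh1a1 was not called. Adh1 fell by 122-fold, with 3.84, 3.44 and 3.96 CPM in mesothelial cells, against 481, 452 and 439.5 CPM in fibroblasts. Cyp26b1, which breaks down retinoic acid, had 0.101, 0.170 and 0.195 CPM in mesothelial cells, against 10.2, 12.3 and 17.2 CPM in fibroblasts (log2 fold change -6.42 ± 0.43 SE, edgeR adjusted p 1.38e-07), while the receptor Rarb rose by 1.13 but lost its call without fibroblast library 1 (0.996) or 2 (0.94).

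Genes of fat cell precursors and of adventitial progenitors were more often lower than higher. Of 17 adipogenic and lipid uptake genes, 9 were lower, 3 higher and 5 not called. Pparg, the master regulator of fat cells, had 0.530, 0 and 0.162 CPM in mesothelial cells, against 11.4, 6.64 and 7.92 CPM in fibroblasts, a log2 fold change of -5.07 (-6.62 without mesothelial library 1). Ebf1 and Ebf2, early factors of the lineage, fell by 249-fold and 128-fold. Lpl, lipoprotein lipase, had 15.6, 11.4 and 12.1 CPM in mesothelial cells, against 1928, 1754 and 1864 CPM in fibroblasts, with no overlap (log2 fold change -7.14 ± 0.27 SE, edgeR adjusted p 4.5e-09). The desaturase Scd1 rose, with 346, 313 and 457 CPM in mesothelial cells, against 139, 162 and 166 CPM in fibroblasts. Of 14 adventitial progenitor markers 8 were lower and 1 higher, the higher one being Dpp4. Ly6a, encoding Sca-1, had 42.7, 81.7 and 60.2 CPM in mesothelial cells, against 2179, 1794 and 1957 CPM in fibroblasts, and the related Ly6c1, whose reads may be shared with close copies, 3.16, 2.83 and 2.86 CPM in mesothelial cells, against 796, 648 and 689 CPM in fibroblasts. Both lay without overlap, at log2 fold changes of -5.01 and -7.91. Efhd1 had 0.0758, 0 and 0.0325 CPM in mesothelial cells, against 37.9, 26.3 and 59.2 CPM in fibroblasts.

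Prostaglandin genes changed in both directions. Pla2g4a, which frees arachidonic acid, rose by 3.11-fold, and Ptgis, the synthase of prostacyclin, had 756, 946 and 743 CPM in mesothelial cells, against 243, 203 and 324 CPM in fibroblasts, a log2 fold change of 1.67. Ptgds, a synthase of prostaglandin D2, had 13.7, 23.02 and 18.9 CPM in mesothelial cells, against 0.130, 0.0948 and 0 CPM in fibroblasts (log2 fold change 7.78 ± 0.50 SE, edgeR adjusted p 3.75e-08). Without fibroblast library 1 it was higher by 365-fold (95% interval 125 to 1771). Ptges, a synthase of prostaglandin E2, and the degrading enzyme Hpgd fell by 3.91-fold and 3.83-fold. Receptors were exchanged, the prostacyclin receptor Ptgir with 1.99, 0.205 and 1.69 CPM in mesothelial cells, against 93.3, 96.0 and 97.0 CPM in fibroblasts and the E2 receptor Ptger3 with 56.2, 101 and 34.9 CPM in mesothelial cells, against 0.470, 0.569 and 2.69 CPM in fibroblasts (-6.16 and 5.74 on the log2 scale; 6.92 for Ptger3 without fibroblast library 3). Of 19 genes 4 were higher and 6 lower (52.6% called, beside 22.2% of all genes).

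Contractile genes included several of striated muscle. Of 19 tested sarcomere and contractile genes, 8 were higher and 3 lower, or 1 lower without the 2 libraries highest in acinar RNA. Besides the myosin-binding proteins, the atrial myosin light chain Myl7 had 10.2, 18.04 and 10.2 CPM in mesothelial cells, against 0.130, 0 and 0.138 CPM in fibroblasts (log2 fold change 7.08 ± 0.55 SE, edgeR adjusted p 2.52e-07), and the smooth muscle genes Acta2 and Tagln had 155, 188 and 194 CPM in mesothelial cells, against 55.8, 48.1 and 27.3 CPM in fibroblasts and 71.3, 90.1 and 112 CPM in mesothelial cells, against 26.0, 20.98 and 15.1 CPM in fibroblasts, log2 fold changes of 2.03 and 2.14. Of 28 axon guidance and neurotrophic genes tested, 5 were higher and 8 lower, beside 12.5% and 9.72% of all genes. Sema3a, a repellent of axons, had 113, 109 and 145 CPM in mesothelial cells, against 1.46, 1.58 and 0.620 CPM in fibroblasts (log2 fold change 6.62 ± 0.32 SE, edgeR adjusted p 1.7e-08). Of 15 cell cycle genes none was higher and 5 were lower (33.3% called, beside 22.2% of all genes). Of these genes 2 were lower without fibroblast library 1, and 1 without the 2 libraries highest in acinar RNA. Of 22 immediate early and heat shock genes, which respond to tissue handling, 2 were higher, Ier3 with 1015, 1386 and 1728 CPM in mesothelial cells, against 197, 95.9 and 176 CPM in fibroblasts and the scarcer Fosl1, and none lower, beside 12.5% and 9.72% of all genes. The call of Fosl1 was lost with all 34 libraries in the fit (edgeR adjusted p 0.0847). The number higher was 4 without mesothelial library 1, fibroblast library 1 or both, and 5 without fibroblast library 3, and 1 was lower without fibroblast library 2.

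Markers of other cell types were mostly low, with exceptions that did not move with the rest of their list. Blood endothelial markers summed to 117, 97.9 and 104 CPM in mesothelial cells and 285, 441 and 329 CPM in fibroblasts. Most of the fibroblast sum was Tek, the angiopoietin receptor, with 5.48, 3.44 and 5.49 CPM in mesothelial cells, against 246, 384 and 348 CPM in fibroblasts. Most of the mesothelial sum was Kdr. Sox17 had no count in mesothelial cells, while Pecam1 was present there at the levels given above. Cdh5 averaged 1.77 ± 0.736 CPM in mesothelial cells with scaling over 18 libraries (SD, n = 3). In the lymphatic list the sum was 196, 21.6 and 17.8 CPM in mesothelial cells and 37.5, 5.81 and 5.97 CPM in fibroblasts. Library 1 was the highest of each group. Of the 6 lymphatic genes 1, Lyve1, was called higher (16.7%, beside 22.2% of all genes). None was called without mesothelial library 1 or 2 or fibroblast library 2 or 3, 2 without mesothelial library 3, and 3 without the 2 libraries highest in acinar RNA. Mural markers summed to 275, 254 and 278 CPM in mesothelial cells and 338, 458 and 345 CPM in fibroblasts. Of their 12 genes 4 were lower, among them Rgs5 by 12.1-fold and Abcc9 by 9.07-fold, and Acta2 was higher. Of the 3 markers of interstitial cells of Cajal, the pacemaker cells of the gut, Ano1 had 673, 716 and 533 CPM in mesothelial cells, against 4.75, 1.74 and 3.20 CPM in fibroblasts (log2 fold change 7.62 ± 0.38 SE, edgeR adjusted p 3.62e-08). Etv1 had 193, 143 and 254 CPM in mesothelial cells, against 18.2, 16.6 and 11.4 CPM in fibroblasts, a log2 fold change of 3.67. The receptor Kit had 1.74, 0.136 and 0.974 CPM in mesothelial cells, against 0.861, 0.158 and 0.0344 CPM in fibroblasts. Glial and neuronal markers summed to 40.2, 27.2 and 35.2 CPM in mesothelial cells and 37.0, 36.4 and 38.1 CPM in fibroblasts. Of these Erbb3 and Gfap were higher, and Ret, S100b, Tubb3 and Uchl1 lower (for Tubb3 -3.25, or -4.14 without mesothelial library 3, and for Uchl1 -2.51, or -3.11 without mesothelial library 2). Sox10 was at 0 in 5 libraries. Adipocyte markers summed to 2.08, 0.718 and 1.68 CPM in mesothelial cells and 6.47, 7.82 and 4.16 CPM in fibroblasts, with 3 of 7 tested lower. Lymphocyte markers summed to 3.06, 1.14 and 1.23 CPM in mesothelial cells and 16.9, 21.9 and 12.0 CPM in fibroblasts, and the heavy chain of IgM, Ighm, made up most of the fibroblast sums, at 0.833, 0 and 0.195 CPM in mesothelial cells, against 17.2, 19.4 and 12.8 CPM in fibroblasts (log2 fold change -5.43 ± 0.58 SE, edgeR adjusted p 3.61e-05; -7.30 without mesothelial library 1). Sums use library totals and single genes TMM scaling, so that a gene can slightly exceed the sum of its list. The part of any of these cells in the results was not tested.

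The mesentery difference was then set against the same difference in the omentum and epididymal fat, using 12 further libraries of mesothelial cells and fibroblasts. Of 22322 genes tested by edgeR for a departure from the mean of the other depots, 605 (2.71%) were called, 404 (1.81%) with a higher and 201 (0.900%) with a lower difference in the mesentery. The class II genes were among them. Cd74 averaged 1017 ± 616 CPM in mesothelial cells and 10.5 ± 5.85 CPM in fibroblasts of the mesentery, 719 ± 59.8 and 389 ± 124 CPM in the omentum, and 90.0 ± 33.2 and 37.7 ± 15.8 CPM in epididymal fat (SD, n = 3 each). Its mesentery difference exceeded the others by 5.51 ± 0.58 SE on the log2 scale (edgeR adjusted p 1.23e-05), and mesentery fibroblasts were the lowest of the 6 groups. H2-Ab1, H2-Aa and H2-Eb1 exceeded by 4.97, 5.12 and 3.99. Ptprc, encoding CD45, averaged 0.415 ± 0.393 and 0.153 ± 0.264 CPM in mesothelial cells and fibroblasts of the mesentery. In the omentum it averaged 1.08 ± 0.534 and 4.44 ± 0.475 CPM, and in epididymal fat 1.31 ± 1.10 and 1.35 ± 0.683 CPM. The part of leukocyte RNA in the class II departures was not tested. Among basement membrane genes the mesentery difference of Lamc3 exceeded the others by 4.30 ± 0.39 SE and that of Col4a6 by 2.64 ± 0.29 SE (edgeR adjusted p 5.38e-07 and 6.62e-06). In mesothelial cells of mesentery, omentum and epididymal fat Lamc3 averaged 113, 147 and 101 CPM, and in fibroblasts 0.552, 14.1 and 10.7 CPM. Col4a6 averaged 113.5, 80.2 and 123 CPM in mesothelial cells and 7.86, 37.4 and 49.4 CPM in fibroblasts. For both genes mesentery fibroblasts were the lowest of the 6 groups. Wt1 averaged 245 ± 48.1 and 53.9 ± 2.86 CPM in mesothelial cells and fibroblasts of the mesentery, 203 ± 33.4 and 201 ± 12.1 CPM in the omentum, and 156 ± 47.2 and 54.1 ± 15.2 CPM in epididymal fat (SD, n = 3 each), a departure of 1.41 ± 0.28 SE (edgeR adjusted p 0.00498). Wt1 was 1 of 5 mesothelial markers, of 16 tested, called with a higher difference in the mesentery, and none was called lower. The others were Bnc1, Lrrn4, Cldn15 and Gpm6a, with departures of 3.17, 2.86, 2.24 and 1.755. For the markers Msln and Upk3b no departure was called (0.10 and 1.79, edgeR adjusted p 0.981 and 0.0721). In fibroblasts of mesentery, omentum and epididymal fat Upk3b averaged 21.6, 222 and 24.6 CPM, and Msln 19.3, 8.56 and 21.6 CPM.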

How the data were processed

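The deposited files hold, per the file headers, whole-number read counts per gene model from unique alignments, 1 file per library. Salmon, without a version, and the build GRCm38 appear in the submitters' processing notes. Salmon estimates abundance, the headers name unique alignment, and which of them produced the counts is unresolved. The annotation release, strand setting and any pooling are not given in the sources used here. Of 51826 gene identifiers 51633 had a symbol. Positions come from GENCODE M21 on GRCm38, counted from 1.

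The groups follow the titles of the samples. The test was edgeR 4.0.16 in R 4.3.3 (quasi-likelihood F-test, robust, without the legacy mode, TMM scaling, filterByExpr with a minimum count of 10) on the 6 libraries, with Benjamini-Hochberg adjustment over all 19071 genes that passed. A call needs an adjusted p below 0.05 and a log2 fold change of at least 1 in size, and a fold given without an error is the fitted one. CPM of single genes are TMM-scaled, and list sums use library totals. Where a group had no count, a bound from 3 counts over the group replaces the fitted fold, which depends on the prior count. With 1 to 3 counts the ratio has a 95% counting interval. Counts of replicates differed by a chi-square of 50.0 to 124.6 per degree of freedom, so none is a copy of another. The test across depots used 18 libraries with a coefficient per group. The steps were tested on simulated data.

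The members, lists and alternatives were chosen with earlier results of these data known. The text names the sort markers; per direction the 15 called genes of largest change and the 10 of highest level, with a higher group at 10 CPM or more, groups that do not overlap, a gene symbol and no place in a list of another cell type; from each list up to 6 members per direction by adjusted p, with members whose place in a pathway is described; per direction the 10 largest departures from the other depots under the same conditions; and Wt1, Gata4, Gata5, Gata6, Aldh1a1, Aldh1a2, Nkx2-3 and Csf1. Part of them was left out for length, and some genes that the rule names are not reported here. Alternatives were RLE scaling, DESeq2 1.42.0, no filter, a filter of at least 1 CPM in 3 libraries, all 34 libraries in the fit, a test against a log2 fold change of 1, the replicate numbers as a block, acinar genes left out, each library left out in turn, and, added after seeing the data, leaving out the 2 libraries above 5000 CPM of acinar RNA.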

Additional observations from a re-analysis of the deposited data

Results flagged for a closer look

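The mesentery difference between mesothelial cells and fibroblasts departed from the mean of the same difference in the omentum and epididymal fat, by the test of the departure itself, for 605 genes. Values below are the departure on the log2 scale with its SE, and mean CPM ± SD over 3 libraries each, in mesothelial cells and then fibroblasts of a depot.

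Among genes with a higher difference in the mesentery, Mybpc2 departed by 6.76 ± 1.75, with 0 in mesentery fibroblasts and 0.572 ± 0.415 CPM in omentum fibroblasts, so that its size depends on the prior count. Eya4, a transcriptional coactivator, departed by 6.33 ± 0.46, with 35.0 ± 8.78 and 0.411 ± 0.200 CPM in the mesentery and 23.5 ± 2.96 and 8.36 ± 1.54 CPM in the omentum. Cd74, H2-Aa and H2-Ab1 departed by 5.51 ± 0.58, 5.12 ± 0.43 and 4.97 ± 0.42. H2-Aa averaged 148 ± 51.3 and 1.86 ± 0.323 CPM in the mesentery, 171 ± 46.1 and 73.8 ± 18.4 CPM in the omentum and 22.8 ± 5.17 and 10.4 ± 4.49 CPM in epididymal fat. The part of leukocyte RNA in the departures of Cd74, H2-Aa and H2-Ab1 was not tested. Fcgr2b, an inhibitory receptor for immunoglobulin G, departed by 5.29 ± 0.48, with 67.8 ± 14.6 and 0.674 ± 0.0347 CPM in the mesentery and 59.5 ± 12.6 and 44.8 ± 15.2 CPM in the omentum. Extl1 departed by 5.33 ± 1.31, Trim9, a ubiquitin ligase, by 5.03 ± 0.56 and Gdpd2, a glycerophosphodiesterase, by 4.74 ± 0.37. Aox3, an aldehyde oxidase, departed by 4.39 ± 0.43 with near equal groups in the mesentery, at 33.0 ± 7.35 and 33.5 ± 5.30 CPM, and unequal ones in epididymal fat, at 1.12 ± 0.886 and 86.6 ± 11.2 CPM.

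Among genes with a lower difference in the mesentery, Cyp26b1 departed by -5.51 ± 0.69, with 0.148 ± 0.0493 and 12.8 ± 3.51 CPM in the mesentery and 0.837 ± 0.393 and 3.14 ± 0.921 CPM in the omentum. Lepr, the leptin receptor, departed by -4.78 ± 0.35: in the mesentery it was at 5.25 ± 1.61 and 33.2 ± 11.5 CPM, and in the omentum at 43.0 ± 3.41 and 12.1 ± 1.71 CPM. Krtdap departed by -5.37 ± 0.63, Art3 by -3.57 ± 0.47 and the mitochondrial folate enzyme Mthfd2 by -3.32 ± 0.41. The collagen Col8a1 departed by -4.46 ± 0.70, the Hedgehog-binding Hhip by -3.44 ± 0.85 and Mmp2 by -3.02 ± 0.37. Mmp2 averaged 3.22 ± 1.73 and 669 ± 138 CPM in the mesentery and 27.1 ± 5.44 and 785 ± 145 CPM in epididymal fat. The vessel-regulating ligand Angpt2 departed by -3.02 ± 0.72 and the related Angptl1 by -3.01 ± 0.57. The departure of Mybpc2 lost its call in 7 of 12 alternatives, among them the replicate numbers as a block (6.71), all 34 libraries in the fit (6.66) and every single library left out but mesothelial library 2. With 1 mesentery library left out, the departure lost its call at least once for Extl1 (5.13 without fibroblast library 2), Hhip (-3.06 without mesothelial library 1) and Angpt2 (-2.59 without mesothelial library 2), and for Col8a1 it became -7.09 without mesothelial library 1.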

How the results depend on the processing

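The number of genes called was within 1.5 times of the reported one under every alternative but 1. A test against a log2 fold change of 1 called 2777 genes, 1586 higher and 1191 lower. With each library left out in turn the count ran from 2157 to 2485 higher and from 1742 to 1962 lower. The labels do not pair the replicates, and deviations of same-numbered libraries did not go together (-0.03, -0.32 and -0.10). With the replicate number as a block 2174 genes were higher and 1709 lower, and 326 and 153 in the test across depots. For that test DESeq2 called 955 genes, 638 higher and 317 lower, and without a filter on low counts 1006 were called, 668 higher and 338 lower. With 1 mesentery library left out, 311 to 422 genes were higher and 120 to 182 lower, 120 without fibroblast library 1. Leaving out libraries of at least 1000 CPM of acinar RNA left no mesentery fibroblast library and gave no value. Of 276 tested genes that the text names, 250 were called. Of these, 229 kept their call in every one of the 15 alternatives that gave a value, 21 lost it in at least 1 and 8 in at least 3. Of the 26 not called, 7 gained a call in at least 1 with their sign kept. Calb2, which was called with its sign changed, is not among the 7. No called gene changed sign, and 2 uncalled ones did. Of 100 counts of list members called in a direction, 72 were within 1.5 times of the reported count throughout. For Calb2 the log2 fold change ran from -6.60 without mesothelial library 3, which leaves no count in its group and a size set by the prior count, to 1.85 without mesothelial library 1. For Aox3, near equal in the mesentery, it was -0.0175 with RLE scaling, -0.0176 with DESeq2, -0.0158 without a filter, -0.18 to 0.10 with 1 library left out and -0.0493 without the 2 libraries highest in acinar RNA, against 0.0087 as reported. The causes were not tested. Genes below about 1 CPM rest on few counts a library, and their folds on the low side are bounds or have wide intervals.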
